A study of Arabidopsis thaliana with 8 samples.

Results

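The comparison set sdg8 sdg26 seedlings, which carry mutations in both SDG8 and SDG26, against sdg26 seedlings, which carry the SDG26 mutation alone. Both groups therefore lack normal SDG26, and they differ by the sdg8 mutation. The rule took the 2 arrays titled sdg8 sdg26 and the 2 titled sdg26, which make up 4 of the 8 arrays in the study. The other 4 arrays, 2 of sdg8 and 2 of wild type (Col), entered the estimate of the spread and the comparison of backgrounds. The plants were Arabidopsis thaliana, RNA came from the aerial part of 6-day-old seedlings kept at 22 °C in long days, and each sample was hybridised to 1 Agilent array in 1 colour. The labels name no alleles and no complementation line, and the positions of the probes relative to the mutations are not given in the sources used here. All values below are levels, log2 of a gene's signal over the 75th percentile of its array, or differences between levels, sdg8 sdg26 minus sdg26. A gene was said to rise or fall where limma's Benjamini-Hochberg adjusted p over 20594 genes was under 0.05. The labels do not say which arrays came from separate cultures, so the p-values measure the spread between these samples.

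SDG8 and SDG26 are SET-domain histone methyltransferases of the family that methylates histone H3 at lysine 36, a mark laid down over transcribed genes. SDG8, also known as EFS and ASHH2, keeps the floral repressor FLC transcribed, and its loss makes plants flower early. It is also needed for normal transcription of several immune receptor genes and of the carotenoid isomerase gene CRTISO. SDG26 loss, in contrast, is known for late flowering.

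The 4 arrays lay on 1 slide, sdg8 sdg26 at positions 3 and 4 and sdg26 at positions 1 and 2, so slide does not separate the genotypes, whereas position on the slide cannot be told apart from genotype. Between 77.1% and 78.9% of the probes were well above background on these 4 arrays, against 72.0% to 74.9% on the 4 sdg8 and wild-type arrays, and no spot was saturated. The median local background was 26 on each of these 4 arrays. Its highest value was 229880 on sdg26 replicate 2, 76 on sdg26 replicate 1, and 501 and 102.5 on the sdg8 sdg26 arrays. On the sdg8 and wild-type arrays the highest value ran from 63 to 23118. Replicates correlated at 0.985 in sdg8 sdg26 and 0.991 in sdg26. Of 43603 probes, 28429 with a gene locus passed the background filter, and these gave the 20594 genes. In whole aerial parts, fewer cells of a type and less RNA per cell cannot be told apart.

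SDG8 itself was low in sdg8 sdg26. The level of SDG8 (AT1G77300, chromosome 1) was -2.71 and -2.95 in sdg8 sdg26, against -0.38 and -0.49 in sdg26. The groups were well separated, and the fall was 5.25-fold (difference -2.39 ± 0.18 SE, n = 2 arrays each, limma adjusted p = 0.00227). SDG26 (AT1G76710, chromosome 1) was at -4.00 and -5.004 in sdg8 sdg26, against -5.40 and -5.98 in sdg26. Both groups were low beside the levels of -1.07 and -0.996 in sdg8 and -1.09 and -1.04 in wild type. The difference between the mutants for SDG26, 1.19 ± 0.33 with a 95% interval of 0.40 to 1.98, did not pass the test (adjusted p = 0.151). The remaining SET-domain genes measured moved little. Of 19 such genes 0 rose and 1, SDG8, fell, with a median difference of 0.15.

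**Figure D1:**
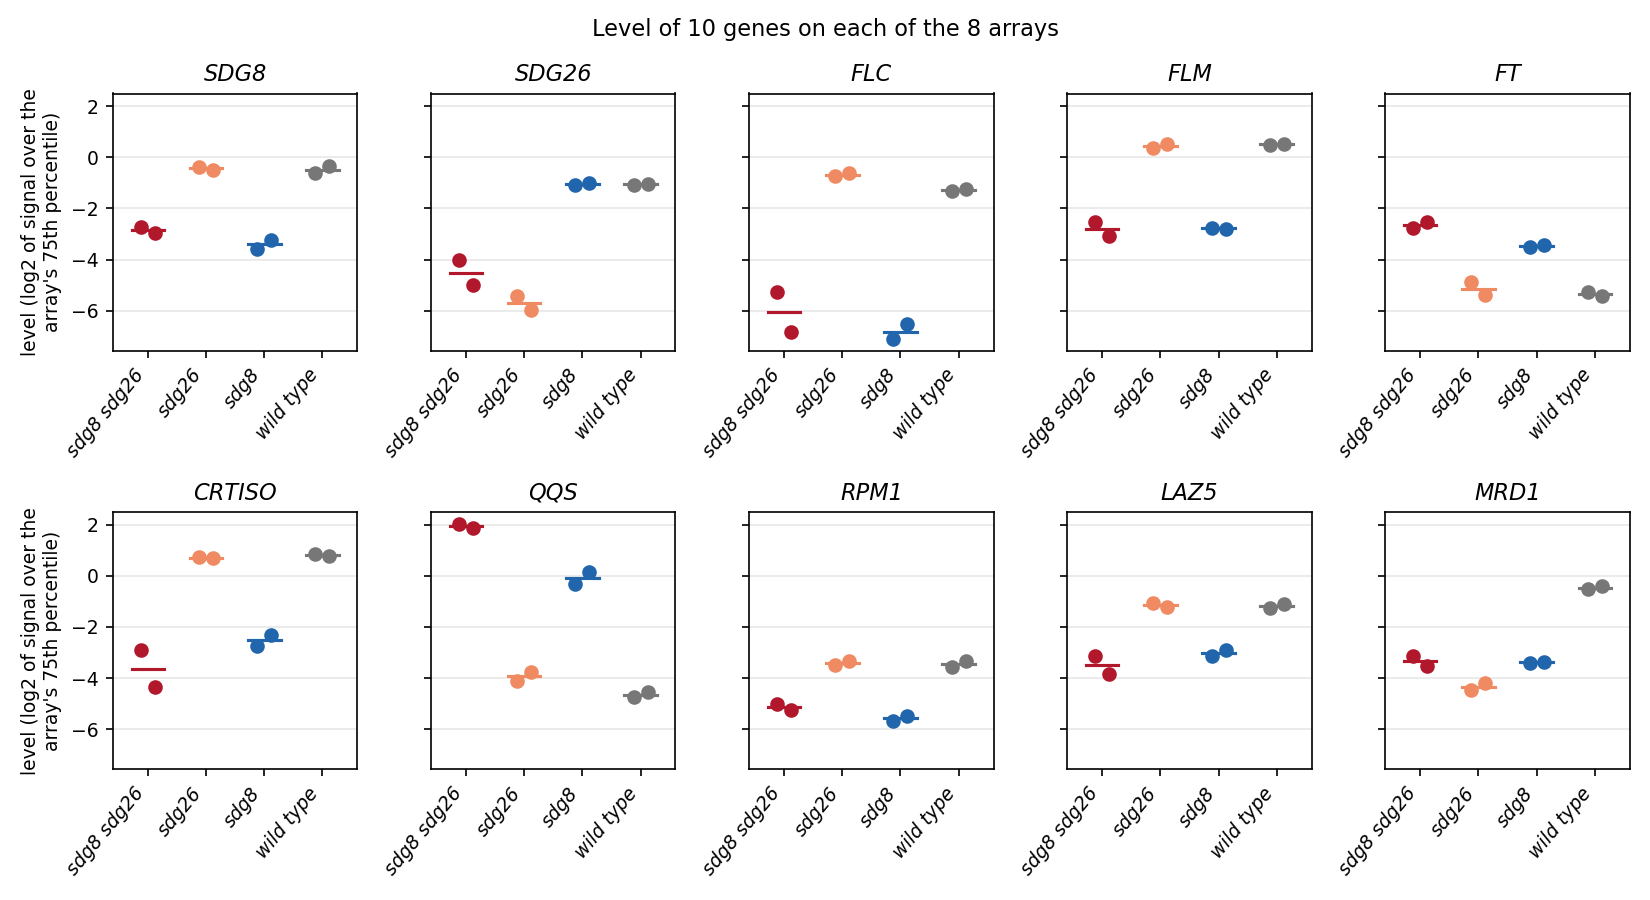
Level of 10 genes on each of the 8 arrays, on the vertical axis as log2 of the signal over the array's 75th percentile, with sdg8 sdg26, sdg26, sdg8 and wild type from left to right; points are arrays and bars the mean of 2. SDG8, FLC, FLM, CRTISO, RPM1 and LAZ5 lie lower and FT and QQS higher in sdg8 sdg26 than in sdg26, with no overlap between the arrays, while MRD1 is far lower in the 3 mutants than in wild type.

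Adding sdg8 to sdg26 lowered more genes than it raised. Of 20594 genes tested 452 changed (2.19%), of which 147 rose (0.714%) and 305 fell (1.48%). The change was at least 2-fold for 324 genes, 112 higher and 212 lower. The median rise was 2.74-fold and the median fall 2.42-fold. The arrays of the genotypes did not overlap for 451 of the 452, a property that 46.2% of all genes tested also had. The count rested heavily on replication: it was 94 without sdg26 replicate 1, 114 without sdg26 replicate 2, 283 without sdg8 sdg26 replicate 1 and 231 without sdg8 sdg26 replicate 2. Leaving out each of the 8 arrays in turn, 73 genes were called every time, 26 higher and 47 lower. With background corrected by normexp on each spot's local background the count was 0, and limma gave 1212 genes with an unadjusted p below 0.05, whereas 3090 had one (15%) in the analysis reported.

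The genes that rose were mostly scarce ones. Their median level was -3.85 in sdg8 sdg26 and -5.49 in sdg26, whereas the median over all genes tested was -0.89 in each genotype. The genes that fell had a median level of -3.46 in sdg8 sdg26 and -1.99 in sdg26. In 36 of the genes that rose the probe was not well above background on either sdg26 array, and in 35 of those that fell neither sdg8 sdg26 array read it well above background. Divided by mean level over the 4 arrays, into 4 equal groups, the lowest group held 107 of the rises and 147 of the falls, and the highest group 2 and 9.

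**Figure D2:**
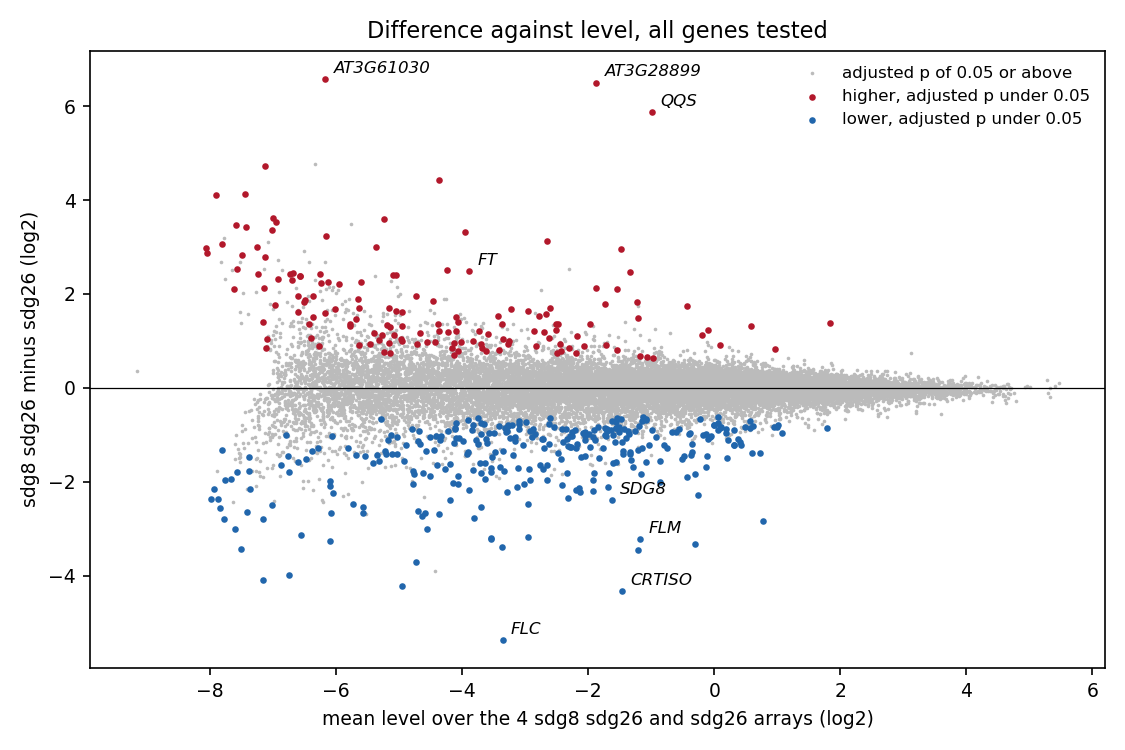
Difference sdg8 sdg26 minus sdg26 (log2, vertical) against the mean level over the 4 arrays (log2, horizontal) for the genes tested; red and blue mark the 147 genes that rose and the 305 that fell. Most rises lie at the low end of the level axis, and falls extend further towards the middle.

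Among flowering genes, falls were found in the FLC clade of MADS-box repressors. FLC (AT5G10140, chromosome 5), the central repressor of flowering, was at -5.26 and -6.83 in sdg8 sdg26, against -0.75 and -0.60 in sdg26. It was well above background on 1 of the 2 sdg8 sdg26 arrays, and the measured fall was 41.3-fold (difference -5.37 ± 0.47, adjusted p = 0.00401). FLM (AT1G77080), a repressor of the same clade that responds to temperature, was at -2.51 and -3.07 in sdg8 sdg26, against 0.36 and 0.52 in sdg26. FLM fell 9.38-fold (adjusted p = 0.000983); it lies on chromosome 1 with 30 annotated genes between it and SDG8. MAF3 was at -0.98 and -0.75 in sdg8 sdg26, against 0.16 and 0.03 in sdg26, a fall of 1.94-fold (difference -0.96 ± 0.13, adjusted p = 0.0189). The MAF3 call was lost without sdg8 sdg26 replicate 1 (0.0807), sdg26 replicate 1 (0.124) or sdg26 replicate 2 (0.104), and with only the 4 arrays fitted (0.0857).

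The other members of the clade did not pass the test. MAF4 was at -4.18 and -5.07 in sdg8 sdg26, against -3.20 and -3.36 in sdg26, a difference of -1.34 ± 0.27 (adjusted p = 0.0632) that passed with quantile normalization (0.0335) and with limma-trend (0.0375). MAF2 and MAF5 differed by 0.10 ± 0.13 and 0.07 ± 0.16. Of the 6 genes of the clade measured, 0 rose and 3 fell, with a median difference of -1.15, beside 0.01 over all genes tested.

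The florigen gene FT, a target of FLC, rose, and whether this followed from the fall of FLC was not tested. FT (AT1G65480, chromosome 1), whose protein moves from leaves to the shoot tip to start flowering, was at -2.77 and -2.55 in sdg8 sdg26, against -4.88 and -5.39 in sdg26. All 4 arrays were well above background, and the rise was 5.57-fold (2.48 ± 0.19, adjusted p = 0.00237). SOC1, a second target of FLC, was at 1.75 and 1.77 in sdg8 sdg26, against 1.24 and 1.53 in sdg26, and its difference of 0.37 ± 0.25 did not pass the test (adjusted p = 0.560, 95% interval -0.22 to 0.97). Among 14 floral activators measured FT was the 1 gene that rose, 0 fell, and the median difference was 0.06. SPL3 and SPL4, which promote the floral transition, had differences of -0.87 and -1.02 with adjusted p of 0.165 and 0.127; SPL4 passed when its probes were averaged (0.0462).

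A relative of FT with the opposite function rose as well. ATC, a relative of TFL1 that represses flowering, was at -1.44 and -1.14 in sdg8 sdg26, against -2.43 and -2.86 in sdg26, a rise of 2.56-fold (adjusted p = 0.0154). The ATC call was lost without sdg8 sdg26 replicate 2 (0.0727) or sdg26 replicate 2 (0.0872), and with only the 4 arrays fitted (0.0819). It was the 1 gene of 10 repressors outside the FLC clade to pass the test in either direction, with a median difference of -0.01 for the list. Of 31 chromatin and RNA regulators of FLC measured, 0 rose and 1 fell, which was SDG8 itself, with a median of 0.13. The floral organ identity genes gave 0 rises and 0 falls among 7 measured, at a median of 0.10; the values of SEP4, SHP2, SEP1 and SEP3 were -0.72, 0.68, 0.64 and 0.68 (adjusted p = 0.0835, 0.0992, 0.157 and 0.176).

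The largest rises were led by genes with no symbol in the RefSeq table. AT3G28899 (chromosome 3) was at 1.33 and 1.43 in sdg8 sdg26, against -4.88 and -5.36 in sdg26, a rise of 90.7-fold (adjusted p = 0.000142). QQS (AT3G30720, chromosome 3), a gene found only in Arabidopsis thaliana whose loss raises leaf starch, was at 2.03 and 1.87 in sdg8 sdg26, against -4.09 and -3.75 in sdg26. QQS thus rose 58.4-fold (5.87 ± 0.21, adjusted p = 0.000172), and moved from the scarce end of the array to above its 75th percentile. AT5G35375 was at -1.97 and -2.33 in sdg8 sdg26, against -6.90 and -6.27 in sdg26, a rise of 21.6-fold (adjusted p = 0.000516). These 3 genes stayed called without each of the 8 arrays in turn.

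Of the 14 largest rises among genes whose probe was clearly detected on each of the 4 arrays, the other 11 besides these 3 ran from 4.38-fold for AT5G24640 to 9.95-fold for AT5G53230. They included FT, NDB4 and GRP20. NDB4, a mitochondrial NAD(P)H dehydrogenase of the alternative respiratory path, was at -3.84 and -3.86 in sdg8 sdg26, against -6.29 and -6.21 in sdg26 (2.41 ± 0.35, adjusted p = 0.0211). GRP20, which encodes a glycine-rich protein, was at -4.88 and -4.08 in sdg8 sdg26, against -6.46 and -7.01 in sdg26 (2.25 ± 0.31, adjusted p = 0.0176). NDB4 lost its call without any 1 of the 4 arrays compared (adjusted p 0.0869 to 0.123), as did AT1G21528 (0.108 to 0.151). GRP20 lost it without sdg8 sdg26 replicate 2 (0.0557), sdg26 replicate 1 (0.0602) or sdg26 replicate 2 (0.113), and AT5G53230 without the same arrays (0.0675, 0.0872 and 0.0829). AT4G12735 lost it without sdg8 sdg26 replicate 1 (0.0531) or 2 (0.0693), and AT3G06895 without sdg26 replicate 1 (0.0660). AT5G53742, AT5G09570, AT2G18193, AT5G24640 and FT were called in each of these refits. NDB4 did not pass with quantile normalization (0.0925) or without the filter on dim probes (0.0533), AT1G21528 without that filter (0.0735), and GRP20 and AT4G12735 with only the 4 arrays fitted (0.0771 and 0.0692).

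Several genes rose that were well above background in sdg8 sdg26 but not on either sdg26 array, so no fold is given for them. The weakest signal well above background was at -7.36 and -7.26 on sdg26 replicates 1 and 2. AT3G61030 was at -2.88 and -2.88 in sdg8 sdg26 (limma adjusted p = 4.99e-05). AT2G03130 was at -4.87 and -4.66 in sdg8 sdg26. AT1G79130, which RefSeq also lists as SAUR40, was at -5.16 on the 1 sdg8 sdg26 array with a value, the other being missing. AT1G03720 was at -5.10 and -5.65 in sdg8 sdg26, and AT4G07526 at -5.37 and -5.002. AT3G61030, AT2G03130, AT1G03720 and AT4G07526 stayed called without each of the 8 arrays in turn. AT1G79130 had no estimate without the 1 sdg8 sdg26 array that held its value.

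The largest fall among genes detected on each of the 4 arrays was that of CRTISO. CRTISO (AT1G06820, chromosome 1), the carotenoid isomerase that turns poly-cis lycopene into the all-trans form, was at -2.92 and -4.35 in sdg8 sdg26, against 0.72 and 0.67 in sdg26. The fall was 20.1-fold (difference -4.33 ± 0.42, adjusted p = 0.00535) and the genotypes did not overlap, although the sdg8 sdg26 arrays differed from each other. The call was lost without sdg26 replicate 1 (adjusted p = 0.0525). CRTISO was the 1 gene of its list to pass: of 21 carotenoid and apocarotenoid genes measured 0 rose and 1 fell, with a median of -0.02. The next smallest p-values of the list were those of LUT1, a carotenoid hydroxylase (-0.47, adjusted p = 0.220), and ABA4, which acts in neoxanthin synthesis (-0.43, adjusted p = 0.254).

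The falls that follow were again mostly of genes without a symbol. AT5G05040 was at -2.75 and -3.12 in sdg8 sdg26, against 0.56 and 0.49 in sdg26, a fall of 11.02-fold (adjusted p = 0.000285). Its neighbour AT5G05060 was at -1.74 and -2.20 in sdg8 sdg26, against 1.28 and 1.43 in sdg26, a fall of 10.01-fold (adjusted p = 0.000599). A second pair of neighbours, AT4G19865 and AT4G19870, fell 13.1-fold and 9.27-fold (adjusted p = 0.00637 for both). Another pair, AT5G56370 and AT5G56380, was at least 16.0-fold lower and 10.5-fold lower. AT4G19865, AT4G19870, AT5G56380 and AT5G42460 lost their calls without sdg26 replicate 1 (adjusted p 0.0533 to 0.0696) or sdg26 replicate 2 (0.0584 to 0.0686), and AT5G60030 without sdg8 sdg26 replicate 1, either sdg26 array or either wild-type array (up to 0.129), with only the 4 arrays fitted (0.0589) and without the filter on dim probes (0.0574). AT4G10600, AT1G67620, AT3G52680, AT3G26922 and AT2G26860, with falls of 9.13-fold, 9.01-fold, 8.05-fold, 6.67-fold and 6.40-fold, were called in all 8 refits. No fold is given for genes not well above background on either sdg8 sdg26 array. The weakest signal well above background was at -6.90 and -7.21 on sdg8 sdg26 replicates 1 and 2. Genes of this kind that fell included AT5G44980, at -5.39 and -4.84 in sdg26, and AT4G09920, at -5.70 and -5.90. They also included AT5G42280, at -4.43 and -4.49 in sdg26, and AT1G20120, at -4.89 and -5.08. Of these, AT1G20120 lost its call without sdg26 replicate 1 (0.0525).

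**Figure D3:**
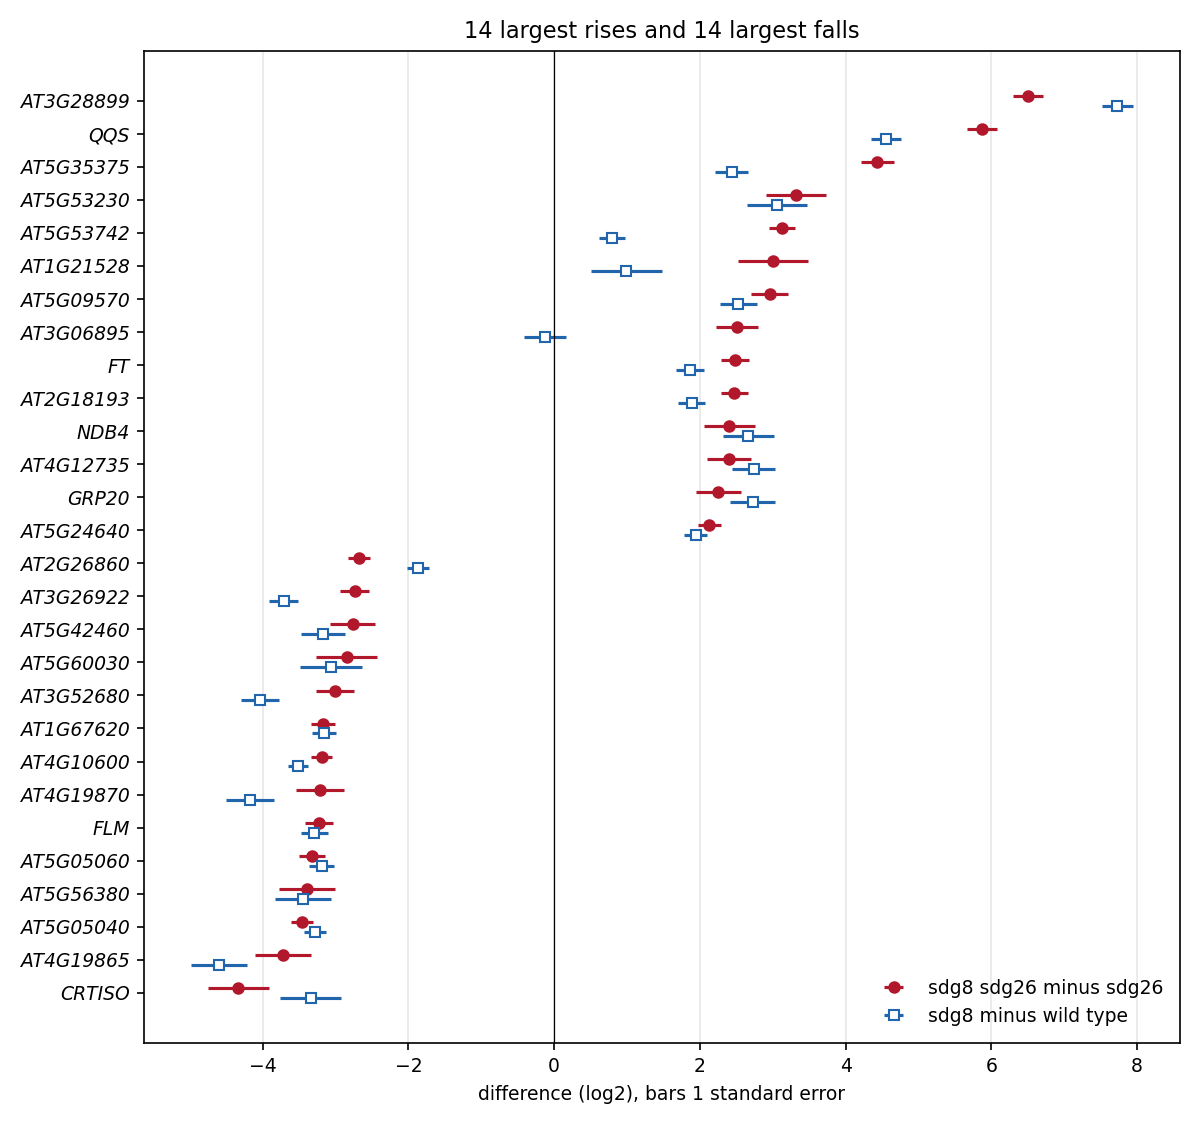
Difference (log2, horizontal) of the 14 largest rises and 14 largest falls among genes well above background on the 4 sdg8 sdg26 and sdg26 arrays, as sdg8 sdg26 minus sdg26 (filled circles) with sdg8 minus wild type beside it (open squares); bars are 1 standard error. AT3G28899 and QQS lead the rises and CRTISO the falls. AT3G06895, AT5G53742 and AT1G21528 lie near 0 to 1 in sdg8 minus wild type but at 2.51, 3.12 and 3.01 in sdg8 sdg26 minus sdg26.

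Some intracellular immune receptors of the NLR type fell, while most of those measured did not pass the test. NLR proteins recognise pathogen effectors inside the cell, and those with a TIR domain signal through EDS1. Of 13 TIR class genes measured 0 rose and 3 fell, at a median of -0.66, and 12 of the 13 values were below sdg26. Of 11 coiled-coil and RPW8 class genes 0 rose and 2 fell, at a median of -0.53. The median over all genes tested was 0.01.

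RPM1, the coiled-coil receptor for Pseudomonas effectors that modify RIN4, was at -5.01 and -5.26 in sdg8 sdg26, against -3.49 and -3.34 in sdg26, a fall of 3.301-fold (adjusted p = 0.00413). LAZ5, a TIR class receptor known from cell death in the acd11 mutant, was at -3.15 and -3.83 in sdg8 sdg26, against -1.07 and -1.21 in sdg26, a fall of 5.11-fold (adjusted p = 0.00547). RRS1, the TIR class receptor with a WRKY domain that pairs with RPS4, was at -2.69 and -2.99 in sdg8 sdg26, against -1.39 and -1.35 in sdg26, a fall of 2.77-fold (adjusted p = 0.00535). RPM1 was called without each of the 8 arrays in turn, whereas LAZ5 lost its call without sdg26 replicate 1 (0.0533) and RRS1 without sdg26 replicate 1 (0.0525) or 2 (0.0520).

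Smaller falls were those of CHS3, a TIR class receptor with a LIM domain, and ADR1, an RPW8 class helper receptor. CHS3 was at -1.15 and -1.003 in sdg8 sdg26, against 0.00 and -0.27 in sdg26 (-0.94 ± 0.17, adjusted p = 0.0424). ADR1 was at -1.83 and -1.93 in sdg8 sdg26, against -0.92 and -1.08 in sdg26 (-0.88 ± 0.13, adjusted p = 0.0252). CHS3 lost its call without any 1 of the 8 arrays (0.0511 to 0.190) and under 4 other settings (0.0680 to 0.101), among them averaging the probes of a gene, and ADR1 without any 1 of the 4 arrays compared (0.0812 to 0.143) or either wild-type array (0.0518), with median-background normexp (0.0904), with a fit of only the 4 arrays (0.0856) and without the dim-probe filter (0.0558). CHS1 and RPP8 had differences of -1.56 ± 0.30 and -0.95 ± 0.19 that missed the threshold (adjusted p = 0.0551 and 0.0629), although CHS1 passed with quantile normalization (0.0310) and both with limma-trend (0.0332 and 0.0274). TAO1, named because it was the 1 TIR class gene above sdg26, differed by 1.02 ± 0.20 (adjusted p = 0.0610). NLR genes have close relatives, and whether these probes tell them apart was not tested.

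Among genes of salicylate defence, which acts after these receptors, 1 passed the test. EDS1, the lipase-like partner of TIR class signalling, was at -1.45 and -1.46 in sdg8 sdg26, against -0.58 and -0.22 in sdg26, a fall of 2.07-fold (adjusted p = 0.0301) that was lost without any 1 of the 8 arrays (0.0507 to 0.164), with a fit of only the 4 arrays (0.0892) and without the dim-probe filter (0.0658). It was the 1 gene of 19 measured to fall and 0 rose, at a list median of -0.14. PAD4, its partner, and CBP60G, a transcription factor for salicylate synthesis, had differences of -0.60 (adjusted p = 0.225) and -1.16 (adjusted p = 0.132). WRKY54 was well above background on 1 of the 2 sdg26 arrays and its difference of 2.07 ± 0.85 did not pass (adjusted p = 0.323).

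The starch list, in which QQS had been placed, had 2 rises and 0 falls among 35 genes measured, at a median of 0.15. Besides QQS the rise was that of DPE1, the plastid enzyme that rearranges maltotriose during starch breakdown. DPE1 was at -0.79 and -0.69 in sdg8 sdg26, against -1.33 and -1.46 in sdg26 (0.66 ± 0.12, adjusted p = 0.0452). This call depended on the probe and on every array: the adjusted p was 0.653 with the probes of DPE1 averaged and 0.0708 to 0.256 with 1 of the 8 arrays left out, and it lay between 0.0819 and 0.146 under 4 other settings. ISA3, a starch debranching enzyme, and SEX4, a phosphatase of starch breakdown, differed by 0.85 and 0.48 without passing (adjusted p = 0.115 and 0.166).

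Among 35 auxin response genes 0 rose and 1 fell, at a median of -0.06. That gene, IAA13, an Aux/IAA repressor of auxin response, was at -0.36 and -0.43 in sdg8 sdg26, against 0.47 and 0.53 in sdg26 (-0.89 ± 0.11, adjusted p = 0.0131). The arrays of each genotype lay close together, yet the call was lost without any 1 of the 4 arrays compared (0.0506 to 0.110) and with only these 4 fitted (0.0729). The list of 23 SAUR genes, which act in auxin-driven growth, gave 0 rises and 0 falls in limma's test, with 6 members at an unadjusted p under 0.05, and 20 of its values were below sdg26, at a median of -0.41. That list does not hold AT1G79130, also listed as SAUR40, which rose. The smallest unadjusted p of the list belonged to SAUR15, at -0.44 ± 0.13 (adjusted p = 0.165).

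The remaining lists showed little. In limma's test 0 genes rose or fell among the glucosinolate and camalexin genes (24 aliphatic and 17 indole genes, medians -0.08 and -0.24) and the 26 flavonoid genes (median 0.03). The same held for jasmonate (36 genes, -0.07), rapid stress and touch response (26, -0.22), cold and abscisic acid response (23, -0.11) and heat shock (15, -0.11). It held too for brassinosteroid (29, 0.04), gibberellin (28, 0.01), cytokinin (31, 0.05), clock (25, 0.05), photosystem and Rubisco (47, -0.04), iron uptake (30, 0.12) and cell cycle genes (41, -0.07). At an unadjusted p under 0.05 the rapid stress list had 9 lower values and 0 higher ones, among them SZF1 (-0.98, adjusted p = 0.0875), WRKY33, a regulator of defence (-1.43, adjusted p = 0.0975), and ERF6 (-1.54, adjusted p = 0.177). Over the 31 lists 17 of 694 genes measured were called, 2.45%, close to the 2.19% of all genes.

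**Figure D4:**
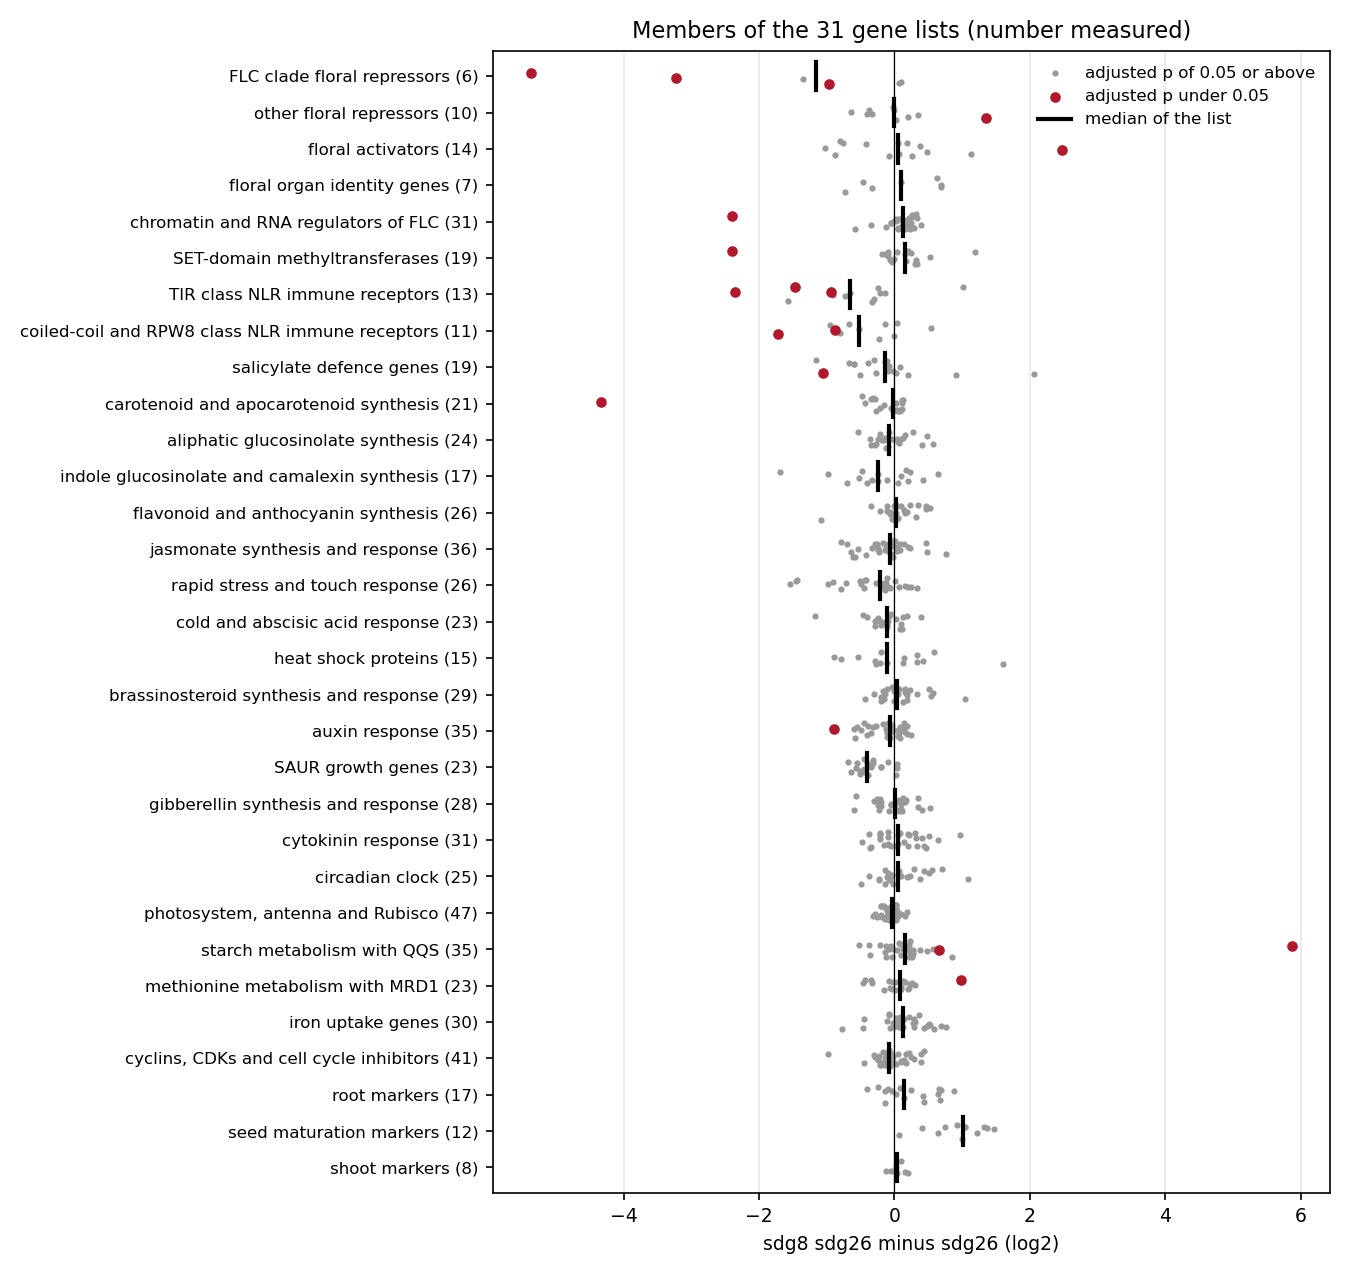
Difference sdg8 sdg26 minus sdg26 (log2, horizontal) of each measured member of the 31 gene lists, with the number measured in parentheses; red points passed the test and black bars are list medians. The FLC clade, at a median of -1.15, and both NLR lists, at -0.66 and -0.53, lie to the left of 0, most other medians lie near 0, and the seed maturation list lies at 1.02 with no red point.

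Marker genes were read as a check of the tissue. The summed signal of the 8 shoot markers was 6.77 to 7.05 (log2) in sdg8 sdg26 and 6.66 to 7.08 in sdg26. The 17 root markers, all well above background on the 4 arrays although the labels give the aerial part, summed to 3.86 to 4.02 in sdg8 sdg26 and 3.68 to 3.92 in sdg26. Seed maturation genes summed to 1.02 to 2.98 in sdg8 sdg26 and 0.59 to 1.63 in sdg26. Of 8 shoot, 17 root and 12 seed markers 0 passed limma's test, and 0, 4 and 0 had an unadjusted p under 0.05. The mean of each of the 12 seed markers was higher in sdg8 sdg26, at a median difference of 1.02, but the arrays of the genotypes overlapped: the median level of the list was -0.99 and -2.70 in sdg8 sdg26, against -3.57 and -2.29 in sdg26. EM6, a late embryogenesis protein gene, was at 1.14 and -1.05 in sdg8 sdg26, against -1.15 and -0.25 in sdg26, which overlap (0.75 ± 0.80, adjusted p = 0.741). PER1, a seed peroxiredoxin and the marker with the smallest p, was at -2.36 and -2.69 in sdg8 sdg26, against -4.29 and -3.48 in sdg26 (1.36 ± 0.63, adjusted p = 0.380). The part of these markers in the changes of other genes was not tested.

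The genes that changed were spread over the genome. The share called was 1.99%, 2.18%, 2.26%, 2.19% and 2.39% of the genes tested on chromosomes 1, 2, 3, 4 and 5. The genes that rose were shorter than the rest: their annotated length had a median of 1672 bp, against 2309 bp over all genes tested, and 29.9% were under 1000 bp, against 8.71%. The genes that fell had a median of 2124 bp, and 6.56% were under 1000 bp. A RefSeq symbol was given to 30.6% of the genes that rose, 29.8% of those that fell and 43.7% of all tested.

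Some changed genes lay side by side. For 44 of the 305 genes that fell (14.4%) a gene next to it among those tested had fallen too, in 20 runs of at most 3 genes, and for 14 of the 147 that rose (9.52%) a neighbour had risen too, in 7 runs of 2. The runs of 3 were AT1G23950 to AT1G23970, AT1G57790 to AT1G57820, AT4G19860 to AT4G19870 and AT5G56370 to AT5G56420. The share of all genes tested with a fallen or risen neighbour was not computed, so whether these shares are high cannot be said. Neighbours can be related copies, and whether their probes are specific was not tested.

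The same mutation in plants with intact SDG26 is given by sdg8 against wild type, which shares no array with the comparison above. There, 538 of the same 20594 genes changed (2.61%), 159 higher (0.772%) and 379 lower (1.84%), and slide could not be told apart from genotype. Of the 452 genes called in sdg8 sdg26 against sdg26, 259 were also called in sdg8 against wild type, which is 57.3% of the 452 and 48.1% of the 538. The direction was the same for 258 of the 259, with 65 higher and 193 lower in both. Every 1 of the 8 arrays mattered to the shared count, which was 64 to 171 when 1 was left out: 171 and 134 without sdg8 sdg26 replicates 1 and 2, 64 and 79 without those of sdg26, 90 and 99 without those of sdg8, and 124 and 93 without those of wild type. The count for sdg8 against wild type fell to 148 and 156 without sdg8 replicates 1 and 2, 268 and 149 without wild type replicates 1 and 2, and 324 without either sdg26 replicate.

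Genes called in 1 background only mostly leaned the same way in the other. Of the 193 called in sdg8 sdg26 against sdg26 alone, 174 had the same sign in sdg8 against wild type, and 130 of these had an unadjusted p under 0.05 there. Of the 279 called in sdg8 against wild type alone, 249 had the same sign in sdg8 sdg26 against sdg26, and 173 of these an unadjusted p under 0.05. Over all 20594 genes, limma gave an unadjusted p under 0.05 for 3429 in sdg8 against wild type and 3090 in sdg8 sdg26 against sdg26. The share of all genes with the same sign in both was not computed. Among the 258 genes changed alike, the median size was 1.42 log2 units in the sdg26 background and 1.38 in the wild-type background, the difference was the larger one in the sdg26 background for 150, and the values differed by a median of 0.27. Across the genes tested the differences correlated at Pearson 0.57 and Spearman 0.52, as a description over genes that share the arrays of each comparison.

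The genes described above had these values in both backgrounds. FLC fell 41.3-fold in the sdg26 background, and its measured fall in sdg8 against wild type was 46.2-fold. That second fold is not a bound, as neither sdg8 array was well above background. FLM fell 9.38-fold and 9.77-fold, and RPM1 3.301-fold and 4.37-fold, in the sdg26 and wild-type backgrounds in that order. FT rose 5.57-fold in the sdg26 background and 3.64-fold in the wild-type background. QQS rose 58.4-fold and 23.5-fold, and CRTISO fell 20.1-fold and 10.1-fold in the same order; the test of the difference gave unadjusted p = 0.00317 for QQS and 0.136 for CRTISO, and neither passed after adjustment (adjusted p = 0.582 and 0.995). AT3G61030 rose in both backgrounds, to -2.88 and -2.88 in sdg8 sdg26 and to -1.53 and -1.40 in sdg8. No sdg26 or wild-type array read it well above background.

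**Figure D5:**
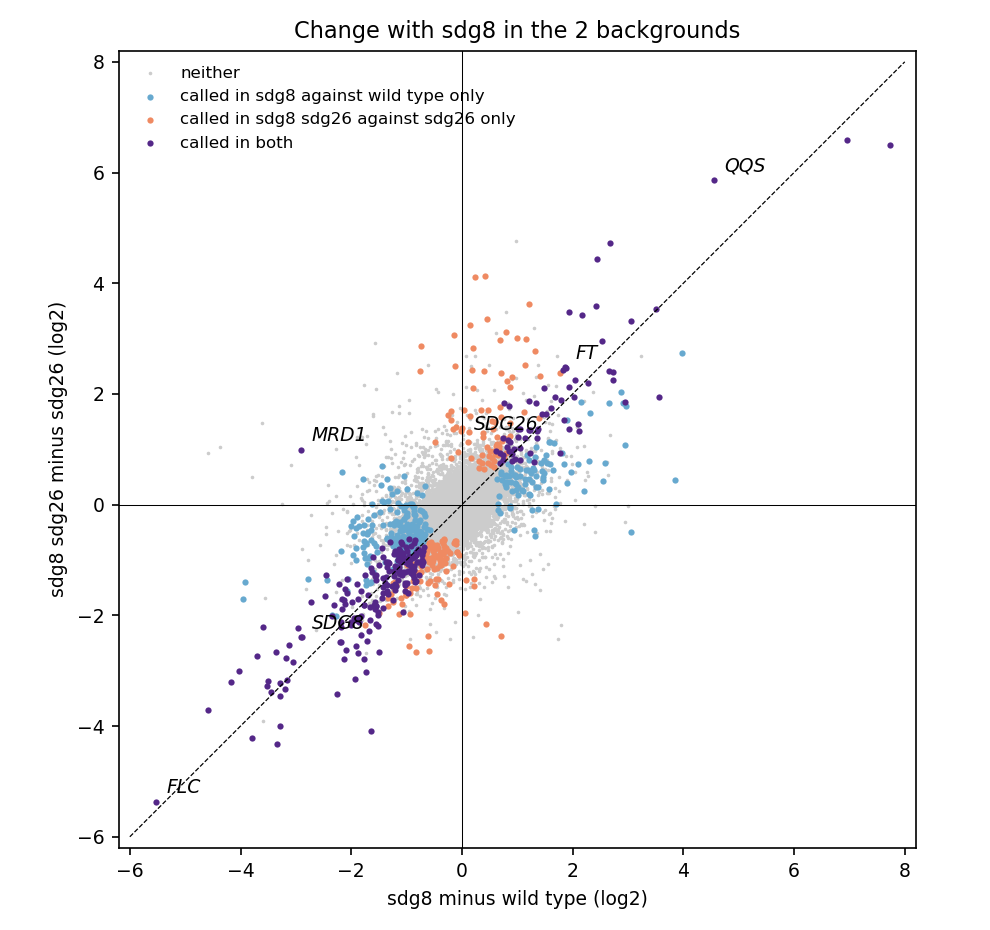
Difference sdg8 sdg26 minus sdg26 (log2, vertical) against sdg8 minus wild type (log2, horizontal) for the genes tested, coloured by the comparisons in which each was called; the dashed line marks equal values. Of the 259 genes called in both, 258 have the same direction in both comparisons, and MRD1, at 0.99 and -2.91, has opposite ones. Some of the 258 lie well off the line, among them AT5G35375 at 4.44 and 2.43 and AT5G44980 at -4.09 and -1.64.

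The difference between backgrounds was itself tested for every gene. In limma's interaction test 1 gene of 20594 passed (0.00486%), MRD1, and 914 had an unadjusted p under 0.05. MRD1 (AT1G53480, chromosome 1), named for its lower transcript in the methionine over-accumulating mto1 mutant, was at -3.14 and -3.54 in sdg8 sdg26, against -4.47 and -4.19 in sdg26, a rise of 1.99-fold (adjusted p = 0.0403). In the other background MRD1 was at -3.39 and -3.37 in sdg8, against -0.52 and -0.41 in wild type, a fall of 7.53-fold (adjusted p = 0.00138). The interaction was 3.90 ± 0.24 (adjusted p = 0.0237). The levels show sdg8 sdg26, sdg26 and sdg8 all low and wild type high, and the rise and fall are both measured from starting levels that differ between sdg26 and wild type.

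The MRD1 calls were not steady. The interaction lost its call without sdg26 replicate 1 (0.204) or 2 (0.135), sdg8 replicate 1 (0.139) or 2 (0.0506), and wild type replicate 1 (0.0715) or 2 (0.0830). The rise in sdg8 sdg26 against sdg26 lost its call without any array but sdg8 sdg26 replicate 2 (0.0723 to 0.185 for the other 7). It also lost it with a replicate block (0.0821), with a fit of only the 4 arrays (0.141), without the dim-probe filter (0.0851) and with median-background normexp (0.214). The interaction lost its call with a replicate block (0.159) and without that filter (0.121). Of 23 genes of methionine metabolism measured with it, 1 rose and 0 fell, at a median of 0.08, and MRD1 was that gene.

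Other genes had large interactions that missed the threshold. AT5G53742 was at -0.92 and -1.26 in sdg8 sdg26, against -4.33 and -4.10 in sdg26, but at -3.74 and -3.47 in sdg8 and -4.49 and -4.30 in wild type (interaction 2.33 ± 0.25, adjusted p = 0.189). AT2G16586 was at 2.56 and 2.49 in sdg8 sdg26, with the other 6 arrays between 1.00 and 1.26 (interaction 1.53 ± 0.17, adjusted p = 0.189). AT1G23110 went the other way, at -3.49 and -3.78 in sdg8 sdg26 with the other 6 arrays between -2.25 and -1.65 (interaction -2.02 ± 0.21, adjusted p = 0.189). In these 3 genes the double mutant stood apart from the 3 other genotypes on each array.

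AT3G02970, AT1G03720 and cwINV4, the last a cell wall invertase gene, had interactions of 3.21, 3.72 and -2.60 (adjusted p = 0.189, 0.195 and 0.223), but no sdg8 or wild-type array read them well above background. AT5G05430 had an interaction of -1.28 and was likewise below that level there (adjusted p = 0.210). RCK, a DNA helicase gene of meiotic crossing over, differed by 0.01 in sdg8 sdg26 against sdg26 and by 1.69 in sdg8 against wild type (interaction -1.69 ± 0.21, adjusted p = 0.210), with both wild-type arrays not well above background. CLL2, with 1 sdg8 value missing, had an interaction of -3.41 ± 0.40 (adjusted p = 0.225).

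MAF5 and the iron uptake gene IRT1, named for calls in sdg8 against wild type, showed the same kind of contrast. MAF5 differed by 0.07 in sdg8 sdg26 against sdg26 and fell 2.53-fold in sdg8 against wild type (adjusted p = 0.0127), with an interaction of 1.41 ± 0.23 (adjusted p = 0.362). IRT1, the root iron transporter, differed by 0.70 ± 0.18 in the sdg26 background (adjusted p = 0.118) and fell 2.72-fold in sdg8 against wild type (adjusted p = 0.0127), with an interaction of 2.14 ± 0.25 (adjusted p = 0.195). Neither interaction passed the test.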

How the data were processed

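RNA of 8 samples, 2 per genotype, was measured on Agilent arrays of 43603 probes in 1 colour (Cy3), per the labels. Intensities had been extracted by the authors with Agilent's Feature Extraction software; the file headers give 11.5.1.1 as its version and the submitters' processing notes 9.1. The deposited log2 table held the same values as the log2 of the scanner's processed intensity less a constant per array. Genome build and annotation are not given in the sources used here. From the deposited intensity, log2(gProcessedSignal) minus the log2 of each array's 75th percentile was computed; non-uniform and outlying spots, 23 to 92 per array, were set missing, and spots of a probe averaged.

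Probes well above background on both arrays of sdg8 sdg26 or of sdg26 were kept. Names came from RefSeq accessions (TAIR10.1), which matched for 34285 of 36098 probes. A gene was its kept probe with the highest mean over those 4 arrays; of 93 other probes of called genes, 1 differed in sign. Two-sided tests used limma 3.58.1 (lmFit, eBayes; R 4.3.3, statmod 1.5.0) over 8 arrays with genotype as factor (4 residual and 2.83 prior degrees of freedom), Benjamini-Hochberg adjustment over 20594 genes, and contrasts for both backgrounds and their difference; 121 genes had a missing value. The number of arrays limits the precision: the median standard error of a difference was 0.167, and of an interaction 0.236. Code was tested on simulated data. Where the dimmer genotype was not well above background on either array, the fold of a gene was left out. The exception is FLC in sdg8 against wild type, whose fold is given as measured.

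The members and the gene lists were chosen with earlier results of these data known. Genes were named by rule: SDG8, SDG26, FLC, FT and SOC1; the 14 largest rises and falls among called genes well above background on the 4 arrays and not overlapping; the 5 largest in each direction by bound; up to 4 members of each list by p; the 5 smallest interaction p in each direction; and the 6 largest shared changes in each direction. Other genes are said to be named for another reason. Alternatives covered normalization, background, filter, probe choice, blocks and single arrays; gMedianSignal stood in for gMeanSignal in the normexp alternatives.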

Additional observations from a re-analysis of the deposited data

Results flagged for a closer look

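MRD1 was the 1 gene whose response to sdg8 differed between backgrounds in the interaction test, by 3.90 ± 0.24 log2 units (limma adjusted p = 0.0237). It was higher in sdg8 sdg26 than in sdg26 on each array, and lower in sdg8 than in wild type on each array.

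Probes that could not be matched to a gene locus were left out of the comparisons above. Of 5636 such probes that passed the background filter, 156 (2.77%) were called in sdg8 sdg26 against sdg26 when tested in the same way, 75 higher and 81 lower. The largest differences among them were 5.38 and -5.33 log2 units. They are unnamed here and were not analysed further.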

How the results depend on the processing

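The 452 genes changed in sdg8 sdg26 against sdg26 became 456 with the deposited table, 466 with slide as a random block, 510 with quantile normalization, 504 with probes averaged, 503 with limma-trend and 380 with probes well above background on the 4 arrays. It was 191 with a fit of only the 4 arrays, 261 without the dim-probe filter and 146 at an adjusted p under 0.01. For sdg8 against wild type the count was 223 without the filter, 207 with 4 arrays and 288 with normexp on the median background, and the shared count was 114, 79 and 146 in these settings, and the genes shared with sdg8 against wild type numbered 390 with an unadjusted p there. The interaction count was 5 with quantile normalization, 3 with median-background normexp, 2 with limma-trend and 0 without the filter. Called list genes numbered 10 with 4 arrays. Normexp on the local background gave 0 calls for all 5 counts, shifted the median of all genes to -0.29, and turned MRD1 to -0.77, GRP20 to -0.66, AT4G12735 to -0.71, NDB4 to -0.69, AT1G21528 to -0.20, AT3G02970 to -1.57, AT3G54530 to -0.98, AT4G07526 to -1.16, AT1G79130 to -0.57, AT1G03720 to -0.94 and AT2G03130 to -0.68. Of the 452 called genes, 353 kept their sign in that setting, and the genes just listed are only the named ones that changed sign. The cause was not tested.

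Without 1 array the counts ranged from 94 to 346 for sdg8 sdg26 against sdg26, 148 to 473 for sdg8 against wild type, 0 to 4 for the interaction, 64 to 171 shared, and 7 to 14 list genes. Same-numbered samples deviated together at r = -0.40, -0.34 and -0.18 for sdg8 sdg26 with sdg26, sdg8 and wild type, and at 0.39, 0.26 and 0.16 among the other genotypes, so the numbers were not taken as a pairing. The replicate block gave 314, 344, 0 and 156 (both comparisons, interaction, shared). A crossed pairing, chosen after seeing the data, gave 990, 1124, 3, 512 genes shared with sdg8 against wild type, and 34 list genes.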

Other observations

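Further called genes with a RefSeq symbol were picked out after their values were seen, and stand here as description. FUS3, a master regulator of seed maturation, rose to -5.45 and -5.32 in sdg8 sdg26 (limma adjusted p = 0.0219). It was not well above background on either sdg26 array. AGO9, an Argonaute protein of ovules, was at -5.04 and -4.88 in sdg8 sdg26, against -6.25 and -6.58 in sdg26 (1.46 ± 0.22, adjusted p = 0.0240). FWA, an imprinted homeodomain gene that delays flowering when expressed outside the endosperm, fell (limma adjusted p = 0.00637). It was not well above background in sdg8 sdg26, against -6.24 and -5.93 in sdg26. CLV3, the peptide signal of the shoot meristem, fell (limma adjusted p = 0.0456). It was not well above background in sdg8 sdg26, against -5.56 and -5.75 in sdg26. FUS3 and AGO9 were higher and FWA and CLV3 lower, all at low levels. Their calls were lost without 4, 6, 1 and 6 of the 8 arrays, with adjusted p up to 0.127, 0.151, 0.0584 and 0.197.

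XRCC4, a partner of DNA ligase IV in end joining, was at -2.81 and -3.23 in sdg8 sdg26, against -0.78 and -0.88 in sdg26 (-2.19 ± 0.16, adjusted p = 0.00227). MKK5, a mitogen-activated protein kinase kinase, was at -3.23 and -3.19 in sdg8 sdg26, against -0.96 and -1.21 in sdg26 (-2.13 ± 0.14, adjusted p = 0.00180). Both were called without each of the 8 arrays in turn. GMI1, a gene of DNA repair, went the other way, at -2.25 and -1.52 in sdg8 sdg26, against -3.36 and -3.55 in sdg26 (1.57 ± 0.27, adjusted p = 0.0382), and lost its call without 7 of the 8 arrays (up to 0.205). Of 27 CYP71B cytochrome P450 genes measured 1 rose and 5 fell, and of 19 calcium-dependent protein kinases 0 rose and 3 fell, beside 0.714% rising and 1.48% falling among all genes. CYP71B5 was at -2.16 and -2.14 in sdg8 sdg26, against -0.67 and -0.80 in sdg26 (-1.42 ± 0.12, adjusted p = 0.00336), and was called without each array. The other calls of both families were less steady: CYP71B36 was lost without 2 of the 8 arrays, CYP71B13 without 4, CYP71B38 and CYP71B30P without 5 and CYP71B35 without 6 (adjusted p up to 0.187), and CPK27 was lost without 3, CPK31 without 4 and CPK6 without any 1 of the 8 (up to 0.172). Of 5 VIM genes, which help maintain DNA methylation, 0 rose and 3 fell by 0.73 to 0.86, but each of these calls was lost without any 1 of the 8 arrays. These families hold close relatives, and probe specificity was not tested.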
